A study of Saccharomyces cerevisiae with 6 samples.

Results

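The 13 pseudouridines of yeast 18S rRNA were examined in RiboMeth-seq data from Saccharomyces cerevisiae. They were taken from the deposited annotation of modified rRNA positions, in which a plain U marks a pseudouridine, and make up 13 of the 1800 positions of the 18S rRNA. Position 1191, a hypermodified pseudouridine, was left out. The 6 samples of the series formed 6 groups of 1 sample each. Chromatin-associated RNA came from the wild-type strain BY4741. Whole-cell RNA came from a knock-in strain (YWD680), which carries an artificial snoRNA on a plasmid directed at U2954 of the large subunit rRNA (LSU), and from a knock-out strain (YWD486). The plasmid of the knock-out strain holds the snR67-snR53 region with 1 substitution that prevents methylation of LSU-G2619. Gel-purified mature LSU rRNA of the knock-in strain, and gel-purified mature LSU and small subunit (SSU) rRNA of BY4741, completed the set. The target that the labels name for each plasmid lies in the LSU rRNA.

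Pseudouridine is an isomer of uridine in which the base is joined to the ribose through carbon instead of nitrogen. Most pseudouridines of yeast rRNA are made by the pseudouridine synthase Cbf5, which works in a particle with Gar1, Nhp2 and Nop10 and is directed to each uridine by a box H/ACA snoRNA that pairs with the rRNA around it. The ribose of a pseudouridine keeps its free 2'-hydroxyl, unlike that of a ribose methylation, the modification for which RiboMeth-seq was made. That method cuts RNA with alkali, captures the pieces between adapters and counts, bond by bond, how many pieces begin or stop there.

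The pseudouridines are served by 9 H/ACA snoRNAs, all 9 found by symbol in the yeast gene table. snR49 guides 3 of them, snR161 and snR83 guide 2 each, and snR44, snR189, snR80, snR31, snR85 and snR36 guide 1 each. The 18S rRNA runs on the minus strand of chromosome XII from 466869 down to 465070, as the authors' files number it (genome build not given in the sources used here). The 13 sites are exonic positions of a non-coding RNA. In the 5' domain lie Psi106 (466764; snR44), Psi120 (466750), Psi211 (466659) and Psi302 (466568), the last 3 of them guided by snR49, and Psi466 (466404; snR189). The central domain holds Psi632 (466238) and Psi766 (466104), both guided by snR161, Psi759 (466111; snR80) and Psi999 (465871; snR31). The 3' major domain holds Psi1181 (465689; snR85), Psi1187 (465683; snR36), and Psi1290 (465580) and Psi1415 (465455), both guided by snR83.

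The chromatin library held 9790438 read ends on 18S rRNA, the combined knock-in whole-cell library 517732, the knock-out 214756 and the mature SSU library 283160. The median 18S position had 3957 read ends in chromatin, 217 in the knock-in, 96 in the knock-out and 140 in mature SSU RNA. Read ends were more uneven from position to position in chromatin (coefficient of variation 1.00) and in the knock-in (1.15) than in the knock-out (0.793) and in mature SSU RNA (0.555). The knock-in sample consisted of 2 files, called runs here, whose counts add up to the combined file. With 1 sample per group no p-value can be given. The 95% intervals below cover counting error only, and even that imperfectly, since reads that lack molecular identifiers need not come from separate molecules.

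Pseudouridines carried fewer read ends than their neighbours. The relative end level of a position is its count of read ends divided by the mean of its flanks, which are 6 positions on each side, weighted from 1 for the nearest to 0.5 for the farthest. A level of 1 means as many ends as nearby. With 3' and 5' fragment ends summed, the median level of the 13 pseudouridines was 0.291 in chromatin, 0.295 in the knock-in, 0.370 in the knock-out and 0.423 in mature SSU RNA. The median over all 18S positions was 0.848 in chromatin, 0.819 in the knock-in, 0.872 in the knock-out and 0.957 in mature SSU RNA. The upper bound of the interval lay below 1 at all 13 sites in chromatin and in mature SSU RNA. It did so at 12 in the knock-in and in the knock-out, with Psi759 the exception in both. The share of all 18S positions with such a bound was not counted, so these counts have no background. Chromatin, the deepest library, has the narrowest intervals.

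A level of 0.5 or less was found at 13 of 13 pseudouridines in chromatin, where 17.3% of the 18S positions tested had such a level. In the knock-in it was 11 of 13, against 17.8% of positions, and in the knock-out 9 of 13, against 13.5%. Mature SSU RNA had 7 of 13, against 5.59%. The share of low positions differed 3-fold between chromatin and mature RNA, so that the members' counts are read against each library's own share. With the 5th percentile of each library as the limit, chosen after seeing the data, 8 pseudouridines were low in chromatin, 7 in the knock-in, 5 in the knock-out and 7 in mature SSU RNA. For summed ends this removed nearly all of the gap between chromatin and mature SSU RNA. Among 5' ends alone that limit gave 4 in chromatin and 1 in mature SSU RNA, and among 3' ends alone 7 and 8. The depletion was shallower than that at ribose methylations. The median level of the 17 annotated ribose methylations of 18S rRNA was 0.145 in chromatin, 0.0669 in the knock-in, 0.0243 in the knock-out and 0.0390 in mature SSU RNA. A comparison with unmodified uridines needs the 18S sequence, which was not used here, so the part of the base itself in these levels was not tested.

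**Figure D1:**
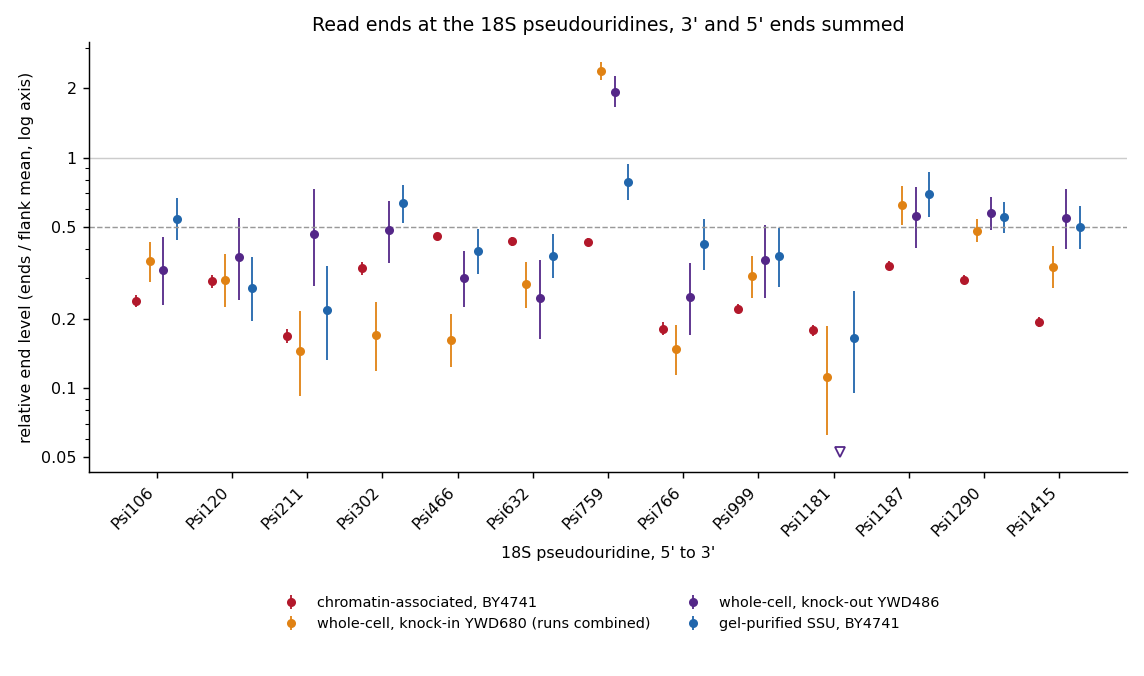
Relative end level (log axis, 3' and 5' ends summed) of each 18S pseudouridine in chromatin-associated RNA, whole-cell RNA of the knock-in and the knock-out, and gel-purified SSU RNA, with 95% counting intervals. The dashed line marks 0.5, the grey line 1, and the open triangle the level that 3 counts would give at Psi1181 in the knock-out, which had 0 ends; the 13 chromatin points lie between 0.168 and 0.455, while Psi759 reaches 2.39 and 1.94 in whole-cell RNA.

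In the 5' domain the 5 sites spanned 0.168 to 0.455 in chromatin and 0.219 to 0.634 in mature SSU RNA. Psi106 had 1024 read ends in chromatin, 106 in the knock-in, 38 in the knock-out and 95 in mature SSU RNA. Its level was 0.238 (0.224 to 0.254) in chromatin, 0.355 in the knock-in, 0.327 in the knock-out and 0.545 (0.438 to 0.669) in mature SSU RNA. Chromatin had the lowest value of the 4 libraries at this site and mature SSU RNA the highest, and their intervals did not overlap. An annotated ribose methylation lies 6 nucleotides from Psi106, at the edge of its flank. In the knock-in the position just downstream held 926 read ends, 775 of them from run 2. The positions 1 and 2 nucleotides upstream held 88 each, fewer than the 106 at the site, so the knock-in level rests largely on the downstream side.

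The sites of snR49 did not share a level. Psi211 had the lowest level of the 3 in chromatin (0.168), the knock-in (0.145) and mature SSU RNA (0.219), whereas its level in the knock-out was 0.465 (0.277 to 0.734) on 19 read ends. Psi120 lay close together in the 4 libraries, at 0.291 in chromatin, 0.295 in the knock-in, 0.370 in the knock-out and 0.273 in mature SSU RNA, with intervals that all overlapped. Psi302 spread the most of the 3, with 0.332 in chromatin, 0.170 in the knock-in, 0.484 in the knock-out and 0.634 in mature SSU RNA. One guide thus served sites whose levels in mature SSU RNA differed beyond their intervals, 0.133 to 0.339 at Psi211 and 0.522 to 0.764 at Psi302.

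Psi466, the site of snR189, had 2852 read ends in chromatin, 59 in the knock-in, 53 in the knock-out and 83 in mature SSU RNA. Its level was 0.455 in chromatin, 0.162 in the knock-in, 0.30 in the knock-out and 0.393 in mature SSU RNA. This was the highest level of any of the 13 pseudouridines in chromatin and, in the knock-in, among the lowest. A large count of 3' ends 3 nucleotides downstream enters the flank of Psi466. Those 3' ends numbered 1982 in run 2 of the knock-in and 11 in run 1, 6457 in chromatin, 363 in the knock-out and 168 in mature SSU RNA. Psi466 was low in both runs, at 0.168 on 52 read ends in run 2 and 0.131 on 7 in run 1. Run 1 had few of those 3' ends, but its flank was uneven in another place. It held 204 read ends 3 nucleotides upstream and 4 at the position just downstream, fewer than at the site. The part of single flank positions in these levels was not tested.

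In the central domain both snR161 sites were depleted in all 4 libraries. Psi632 stood at 0.434 in chromatin, 0.283 in the knock-in, 0.247 in the knock-out and 0.375 in mature SSU RNA. At Psi766 the levels were 0.181 in chromatin, 0.148 in the knock-in, 0.247 in the knock-out and 0.423 in mature SSU RNA. The knock-in flank of Psi766 held 2188 read ends at the position 2 nucleotides downstream, 2147 of them from run 2. The site itself held 66 there, and its nearest neighbours 170 and 180. In the knock-out both snR161 sites had the same level, and in chromatin Psi766 was the lower of the pair by more than their intervals. Psi999, guided by snR31, gave 0.221 in chromatin, 0.305 in the knock-in, 0.360 in the knock-out and 0.373 in mature SSU RNA.

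Psi759, the site of snR80, departed from the other 12. It carried 2957 read ends in chromatin, 602 in the knock-in, 192 in the knock-out and 138 in mature SSU RNA. The level was 0.432 (0.416 to 0.448) in chromatin, 2.39 (2.18 to 2.61) in the knock-in, 1.94 (1.65 to 2.26) in the knock-out and 0.786 (0.656 to 0.934) in mature SSU RNA. The bond at Psi759 was therefore richer in ends than its neighbours in both whole-cell libraries. The excess in the knock-in came from run 2, with a level of 3.44 on 570 read ends, whereas run 1 had 0.369 on 32. In the knock-out, 186 of the 192 ends were 5' ends.

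The 3' major domain held both the lowest and some of the highest levels of mature RNA. Psi1181 (snR85) had 1294 read ends in chromatin, 15 in the knock-in, 0 in the knock-out and 17 in mature SSU RNA. The levels were 0.179 in chromatin, 0.112 in the knock-in and 0.164 in mature SSU RNA. The knock-out count of 0 stood beside a flank mean of 56.8, so that the 3 counts a count of 0 allows would give a level of up to 0.0528. Psi1187 (snR36), 6 nucleotides downstream, was one of the least depleted sites, at 0.339 in chromatin, 0.623 in the knock-in, 0.557 in the knock-out and 0.695 in mature SSU RNA. Its flank holds Psi1181 on one side and the hypermodified position 1191 on the other. At 1191 itself the 3' ends numbered 318 in chromatin, 0 in the knock-in, 1 in the knock-out and 2 in mature SSU RNA.

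The snR83 sites had similar levels in mature SSU RNA and in the knock-out. Psi1290 had 0.296 in chromatin, 0.482 in the knock-in, 0.575 in the knock-out and 0.551 in mature SSU RNA. Psi1415 had 0.194 in chromatin, 0.337 in the knock-in, 0.549 in the knock-out and 0.50 in mature SSU RNA. At both sites the chromatin level was the lowest of the 4, with an interval clear of the other 3. By domain, the median level in chromatin was 0.291 over the 5' domain, 0.327 over the central domain and 0.245 over the 3' major domain. In mature SSU RNA those medians were 0.393, 0.399 and 0.526, over 5, 4 and 4 sites.

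The 25S rRNA offered a check of the same modification in another molecule of the same libraries. Its 30 annotated pseudouridines had a median summed level of 0.268 in chromatin, 0.362 in the knock-in and 0.363 in the knock-out. The 18S medians of those libraries were 0.291, 0.295 and 0.370, so that the 2 rRNAs lay close to each other within each library. In mature wild-type rRNA the 25S median was 0.310 in the LSU library and the 18S median 0.423 in the SSU library, which were separate preparations.

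The depletion was not the same for the 2 kinds of fragment end. Counting 3' ends alone, the median level over the pseudouridines was 0.215 in chromatin, 0.168 in the knock-in, 0.224 in the knock-out and 0.341 in mature SSU RNA. With 5' ends alone it was 0.290 in chromatin, 0.384 in the knock-in, 0.515 in the knock-out and 0.531 in mature SSU RNA. The 3' level was below the 5' level at 8 of 13 sites in chromatin, 10 in the knock-in, 10 in the knock-out and 10 in mature SSU RNA. Over all 18S positions the 3' level was the lower at 49.7% in chromatin, 53.1% in the knock-in, 50.9% in the knock-out and 49.8% in mature SSU RNA.

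Levels of 0.5 or less among 3' ends were found at 12 of 13 sites in chromatin, where 22.1% of positions had one, and at 11 in the knock-in, against 24.1%. They were found at 11 in the knock-out, against 18.7%, and at 10 in mature SSU RNA, against 7.94%. Among 5' ends the counts were 13 of 13 in chromatin, against 25.4%, and 10 in the knock-in, against 21.8%. The knock-out had 6 of the 12 sites with enough flanking ends, against 22.1%, and mature SSU RNA 6 of 13, against 12.6%. The gap between the libraries was therefore wider among 5' ends than among 3' ends as a count, and this difference was not tested.

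**Figure D2:**
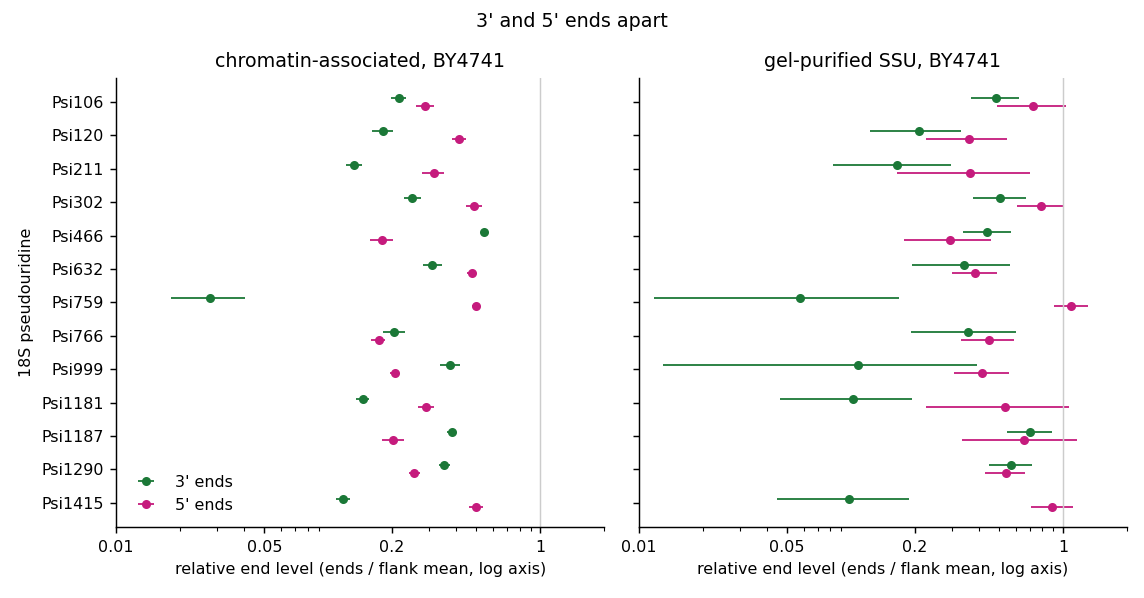
Relative end level (log axis) of each 18S pseudouridine for 3' ends and 5' ends apart, in chromatin-associated RNA on the left and gel-purified SSU RNA on the right, with 95% counting intervals. The 3' level lies below the 5' level at 8 of 13 sites in chromatin and at 10 of 13 in SSU RNA, with the widest gap at Psi759 in both.

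Psi759 showed the widest gap between the ends in chromatin and mature SSU RNA. Its 3' ends numbered 26 in chromatin, 19 in the knock-in, 6 in the knock-out and 3 in mature SSU RNA, against 2931, 583, 186 and 135 5' ends in the same libraries. The 3' level was 0.0277 in chromatin, 0.197 in the knock-in, 0.232 in the knock-out and 0.0574 in mature SSU RNA, which places Psi759 among the depleted sites in each library. The 5' level was 0.496 in chromatin, 3.74 in the knock-in, 2.54 in the knock-out and 1.09 in mature SSU RNA. The summed level above 1 in whole-cell RNA was thus a matter of 5' ends alone.

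At Psi1415 the 3' level was likewise far below the 5' level, and in the knock-out the gap was wider there than at Psi759. It was 0.118 in chromatin, 0.159 in the knock-in, 0.0293 in the knock-out, on 1 end, and 0.0984 in mature SSU RNA. The 5' level was 0.498 in chromatin, 0.632 in the knock-in, 0.881 in the knock-out and 0.889 in mature SSU RNA. Psi1187 was the site least depleted in 3' ends in the knock-in (0.693) and mature SSU RNA (0.703), with 0.382 in chromatin and 0.583 in the knock-out. The knock-in runs differed there, with 0.726 on 92 ends in run 2 and 0.293 on 3 ends in run 1. In chromatin the highest 3' level belonged to Psi466, at 0.544 (2579 ends), whereas its 5' level was 0.179 (273 ends).

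The share of 3' ends among all read ends of a site compares both kinds of end directly. At Psi759, 3' ends made up 0.879% of the read ends in chromatin, 3.16% in the knock-in, 3.13% in the knock-out and 2.17% in mature SSU RNA. In its flanks they made up 14.7% in chromatin, 38.2% in the knock-in, 27.1% in the knock-out and 31.2% in mature SSU RNA. At Psi1415 the shares were 48.7% in chromatin, 29.3% in the knock-in, 2.08% in the knock-out and 9.68% in mature SSU RNA, beside flank shares of 80.1%, 62.1%, 39.9% and 50.2% in the same libraries. At Psi1187 the order was the opposite, with shares of 85.8% in chromatin, 81.9% in the knock-in, 84.8% in the knock-out and 85.9% in mature SSU RNA, each above the flank share of its library (76.6%, 69.1%, 76.7% and 82.1%), and beyond the counting interval in chromatin and the knock-in. The knock-in value came from run 2, with 92.0% against 75% in its flanks, whereas run 1 had 18.8% on 16 ends against 34.1%.

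Across the sites the 95% Wilson interval of the 3' share lay below the flank share at 8 sites in chromatin, 8 in the knock-in, 7 in the knock-out and 6 in mature SSU RNA. It lay above at 5 sites in chromatin, 1 in the knock-in, 0 in the knock-out and 0 in mature SSU RNA. The chromatin intervals are the narrowest, so that small departures are called there in both directions. How often other positions of the rRNA would be called below or above was not counted, so these counts have no background. The 5 sites above in chromatin were Psi466 (90.4% against 72.9% in its flanks), Psi766 (28.8% against 25.4%), Psi999 (15.8% against 8.83%), Psi1187 and Psi1290 (49.7% against 42.4%).

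**Figure D3:**
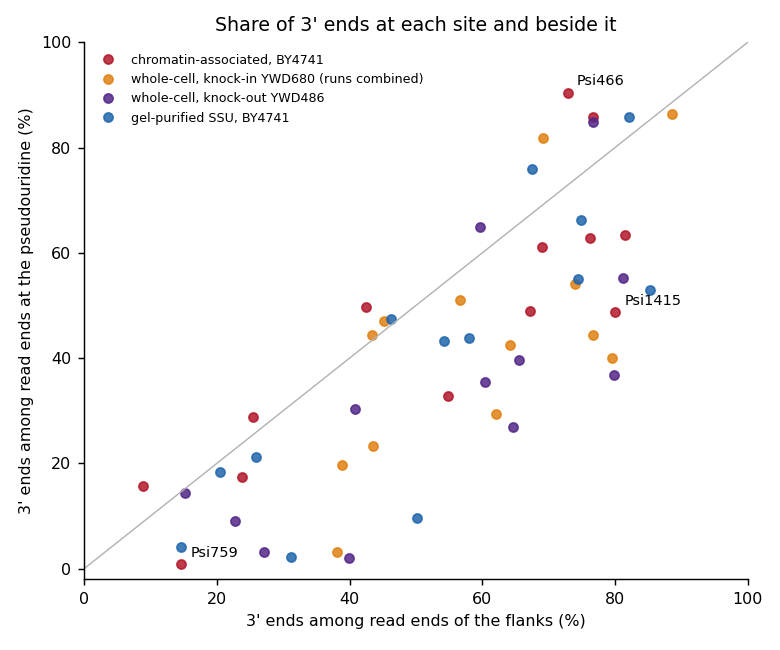
Percentage of read ends that are 3' ends at each 18S pseudouridine (vertical axis) against the percentage in its flanks (horizontal axis), 1 point per site and library; the line marks equal shares and 3 chromatin points are named. Psi759 lies at the bottom with 0.879% in chromatin, and Psi466 lies above the line with 90.4%.

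The depletion of 3' ends reached 1 nucleotide upstream. At the position just 5' of the pseudouridine the median 3' level was 0.491 in chromatin, 0.401 in the knock-in, 0.479 in the knock-out and 0.707 in mature SSU RNA. A 3' level of 0.5 or less was found there at 7 of 13 sites in chromatin, 8 in the knock-in, 7 in the knock-out and 3 in mature SSU RNA, to be read against the shares of all positions given above for 3' ends. At the position just 3' of the pseudouridine the count was 3 in chromatin, 3 in the knock-in, 1 in the knock-out and 0 in mature SSU RNA. Low medians occurred farther away too, such as 0.559 in the knock-in 6 nucleotides downstream, with 5 of 13 sites at 0.5 or less. At the 17 ribose methylations the median 3' level just upstream was 1.02 in chromatin, 1.08 in the knock-in, 1.17 in the knock-out and 1.08 in mature SSU RNA. Ribose methylations had their lower neighbour on the other side, with a median just downstream of 0.680 in chromatin, 0.325 in the knock-in, 0.408 in the knock-out and 0.641 in mature SSU RNA.

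For 5' ends the position just upstream lay near each library's median over all positions except in the knock-in, where it was lower. The median over all positions was 0.780 in chromatin, 0.825 in the knock-in, 0.857 in the knock-out and 0.943 in mature SSU RNA. Just upstream of the sites the median 5' level was 0.742 in chromatin, 0.634 in the knock-in, 0.793 in the knock-out and 0.949 in mature SSU RNA. Just downstream it was 0.569 in chromatin, 0.790 in the knock-in, 0.870 in the knock-out and 1.06 in mature SSU RNA. The quartiles across the sites were wide, 0.483 to 0.996 downstream in chromatin and 0.936 to 1.26 in mature SSU RNA, and positions around 13 sites are no replicates.

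**Figure D4:**
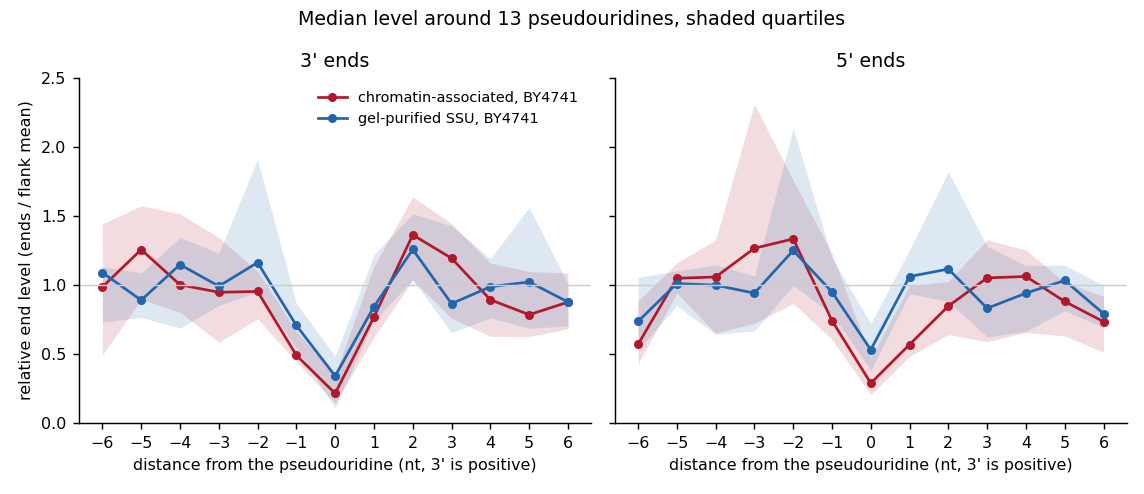
Median relative end level at each distance (nucleotides, positive towards the 3' end) from the 13 pseudouridines, for 3' ends on the left and 5' ends on the right, in chromatin-associated and gel-purified SSU RNA, with the quartiles across sites shaded. For 3' ends the median is 0.215 in chromatin and 0.341 in SSU RNA at the site, and 0.491 and 0.707 at the position upstream.

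Chromatin-associated RNA includes newly made rRNA, and its read ends at the pseudouridines were compared with those of mature and whole-cell RNA. With 1 sample per group, the RNA's age cannot be told apart from the fraction, gel purification or library preparation. Against the knock-in and the knock-out the strain differs as well. A site counted as lower or higher where the levels differed by 1.5-fold or more and the 95% interval of their ratio lay off 1. Against mature SSU RNA, 8 of 13 pseudouridines were lower in chromatin, where 28.4% of the 18S positions were lower, and 0 were higher, where 16.3% were. The ratio of chromatin to mature SSU level had a median of 0.549 over the pseudouridines and of 0.887 over all positions. The annotated ribose methylations went the other way. Of the 17, 14 were higher in chromatin, with a median ratio of 3.87. The read ends of chromatin were also the more uneven of the 2 libraries, as given above, and the part of that unevenness in the lower levels was not tested.

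The 8 lower sites were spread over the 3 domains. The smallest ratio was found at Psi1415, 0.387 (0.312 to 0.485). It was 0.427 (0.331 to 0.559) at Psi766 and 0.438 (0.353 to 0.548) at Psi106. Psi1187 had a ratio of 0.488, Psi302 of 0.523, Psi1290 of 0.537, Psi759 of 0.549 and Psi999 of 0.594. The other 5 sites had ratios from 0.768 at Psi211 to 1.16 at Psi466, each with an interval that held 1. Among them were both other sites of snR49, and Psi632, so that the guides snR49 and snR161 each served a lower site and a site not called.

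The calls lay mostly among 5' ends. With 5' ends alone, 8 of 13 sites were lower in chromatin than in mature SSU RNA, against 34.5% of positions, and 0 were higher, against 18.3%. With 3' ends alone 4 were lower, against 29.9%, and 0 were higher, against 15.8%. The 4 lower in 3' ends were Psi106, Psi302, Psi1187 and Psi1290, and all of them were also lower in 5' ends. The count of 4 of 13 is close to the share of all positions. With flanks of 2 positions the number lower in 3' ends was 0.

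Against whole-cell RNA the sites differed in both directions. Against the knock-in, 4 pseudouridines were lower in chromatin, where 27.7% of positions were, and 3 were higher, where 28.8% were, shares near those of all positions. The median ratio was 0.983. The lower sites were Psi759 (0.181), Psi1187 (0.545), Psi1415 (0.575) and Psi1290 (0.614), and the higher ones Psi466 (2.81), Psi302 (1.96) and Psi632 (1.54). Against run 1 of the knock-in 1 site was higher. Among 3' ends 2 sites were lower, against 30.3%, and 4 were higher, against 32.2%. Among 5' ends 5 were lower, against 31.9%, and 1 was higher, against 27.5%.

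Against the knock-out, 6 pseudouridines were lower in chromatin, where 29.5% of positions were, and 3 were higher, where 25.2% were. The median ratio was 0.649. The lower sites were Psi759 (0.223), Psi1415 (0.353), Psi211 (0.361), Psi1290 (0.514), Psi1187 (0.610) and Psi999 (0.615). Psi632 (1.76) and Psi466 (1.52) were higher, and the level at Psi1181 was at least 3.38-fold higher in chromatin, taking 3 counts for the knock-out's 0 ends. Among 3' ends 3 sites were lower, against 28.4%, and 2 were higher, against 22.6%. Among 5' ends 9 of 12 sites were lower, against 32.5%, and 1 was higher, against 26.1%.

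**Figure D5:**
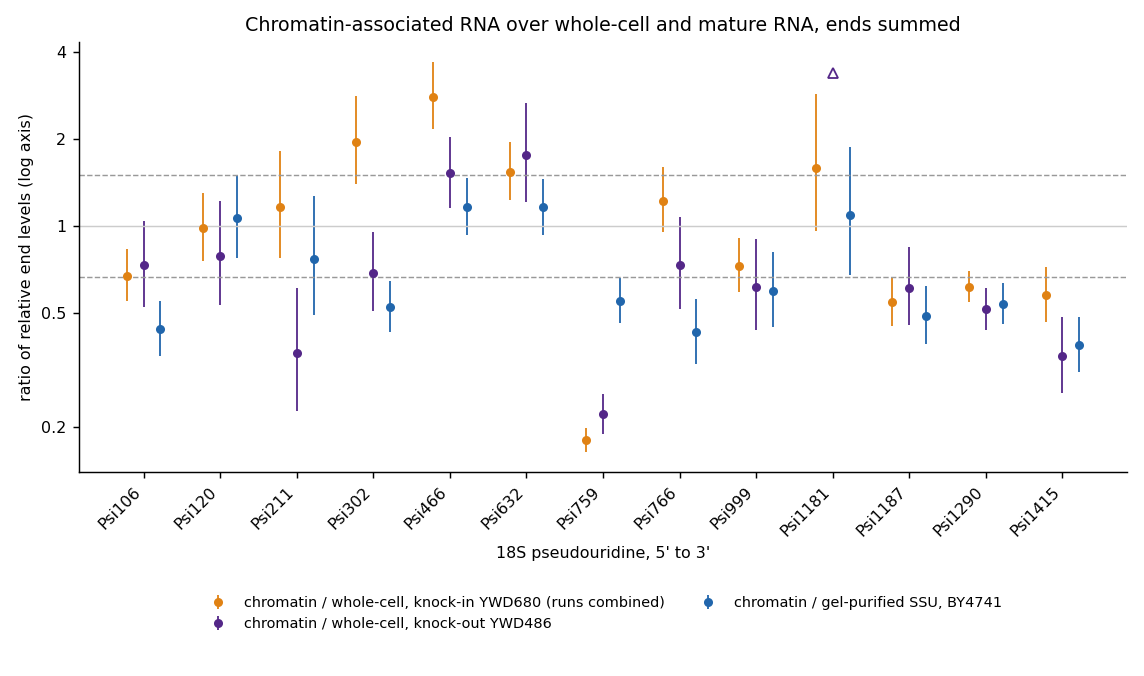
Ratio of the relative end level in chromatin-associated RNA to that in knock-in whole-cell, knock-out whole-cell and gel-purified SSU RNA at each 18S pseudouridine (log axis, ends summed), with 95% counting intervals; dashed lines mark 1.5-fold either way and the open triangle is a lower bound at Psi1181. Psi759, Psi1187, Psi1290 and Psi1415 lie below the lower dashed line in all 3 comparisons, which share the chromatin library, and Psi466 and Psi632 lie above 1 in all 3.

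The spread between repeat measurements limits how these ratios are read. The labels do not say whether the knock-in runs share a library preparation, so the steps that this spread covers are not known. Run 1 held 156998 read ends on 18S rRNA and run 2 held 360734. Single positions differed by more than this depth, such as 11 and 1982 3' ends 3 nucleotides downstream of Psi466. The coefficient of variation was 0.721 in run 1 and 1.58 in run 2. The source of these differences was not tested. The SD of the log2 ratio of run 2 to run 1 of the knock-in was 1.25 over the 13 pseudouridines, a factor of 2.37, and 0.70 without Psi759, a factor of 1.63. Over all 18S positions it was 1.17, a factor of 2.25. Run 2 was lower than run 1 at 4 sites, where 35.2% of positions were, and higher at 1, Psi759, where 19.9% were. Of the 8 sites lower in chromatin than in mature SSU RNA, Psi1415 differed by more than the factor of 2.37, and Psi766 and Psi106 also differed by more than the factor of 2.25. The other 5, Psi759 among them, lay within both factors, though beyond the factor of 1.63 that leaves Psi759 out. Each factor is only 1 SD, so a site beyond it is not thereby set apart from the spread between runs.

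A second view of wild-type 18S rRNA came from the 30674 18S read ends left in the gel-purified LSU library of BY4741. Whether these read ends come from mature 18S rRNA was not tested. The library had enough flanking ends at 9 of the 13 pseudouridines. All 9 had a level of 0.5 or less, where 12.7% of positions had one, and the median was 0.282. Against this library 0 of 9 sites were lower in chromatin, where 21.9% of positions were, and 1 was higher, where 14.2% were, with a median ratio of 1.12. The higher site was Psi1290, with a level of 0.296 in chromatin and 0.103 on 5 read ends in the LSU library. The 18S reads of the LSU library were themselves lower than mature SSU RNA at 3 of the 9 sites, where 8.34% of positions were, and higher at 0, where 9.00% were. The 3 were Psi1290 (ratio 0.187), Psi766 (0.242) and Psi759 (0.492), on 5, 3 and 12 read ends in the LSU library. The depth of the LSU library left wide intervals for the ratio of chromatin to it, such as 0.270 to 1.44 around 0.570 at Psi106 and 0.363 to 5.28 around 1.08 at Psi1415. The median ratio over all positions was 0.926. The lower levels of chromatin against the SSU library were thus not seen as a group against the 18S reads of the LSU library. With 5' ends alone, 1 of the 4 sites that could be compared, Psi999, was lower in chromatin, with a ratio of 0.279 (0.142 to 0.623), where 24.9% of positions were lower, and 0 were higher, where 12.9% were.

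The whole-cell libraries were set against mature SSU RNA in the same way. In the knock-in 4 pseudouridines were lower, where 27.6% of positions were, and 1 was higher, where 12.3% were, which is close to the shares of all positions. In the knock-out 3 were lower, where 15.7% of positions were, and 2 were higher, where 8.35% were. All of these comparisons share the SSU library with that of chromatin against it.

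The authors' deposited pseudouridine score, a separate statistic with a formula not stated in the file headers, was high at part of the sites. In the authors' deposited values its median over the 13 pseudouridines was 4.06 in chromatin, 3.21 in the knock-in, 2.19 in the knock-out and 3.53 in mature SSU RNA, against 0.599, 0.665, 0.569 and 0.397 over all 18S positions of the same libraries. By the authors' deposited score, 5 pseudouridines in chromatin, 5 in the knock-in, 6 in the knock-out and 8 in mature SSU RNA exceeded the 95th percentile of their library. Psi766 passed it in the 4 libraries, with authors' deposited values of 7.48 in chromatin, 11.6 in the knock-in, 9.74 in the knock-out and 3.75 in mature SSU RNA. Psi1187, the site least depleted in 3' ends in the knock-in and mature SSU RNA, had authors' deposited values of 1.02 in chromatin, 0.184 in the knock-in, 0.269 in the knock-out and 0.0137 in mature SSU RNA. The authors' deposited value at Psi1187 was 2.82 in run 1 of the knock-in and 0.0347 in run 2. In the 18S reads of the wild-type LSU library it was 20.9, on 1 read end.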

How the data were processed

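Each sample file deposited by the authors holds 6 tracks in 1 column: counts of 3' ends, 5' ends and their sum per position, without normalization per the file headers, and 3 scores computed by the authors. The submitters' processing notes name cutadapt 1.2 and Bowtie2 2.1.0. For genome build and mapping options, nothing is stated in the labels or headers. The sum track equalled 3' plus 5' ends at all 1800 18S positions, and the combined knock-in file equalled its 2 runs at all 1800.

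From these counts a relative end level (ends divided by the mean of the weighted left and right flank means) was computed with Python 3.11.15, numpy 2.4.6 and scipy 1.17.1, where the mean flank was at least 10. Intervals of 95% treat the site and flank counts as a conditional binomial, and ratios combine both libraries' intervals on the log scale. The procedure was tested on simulated counts that held counting error only. They leave out the spread between runs, so the simulation cannot show how the calls fare against it. Counts of 0 were bounded with 3 counts. Every annotated pseudouridine of 18S rRNA is named in the text, as the rule for named sites asks. The members, guides, domains and criteria were chosen with earlier results of these data known. Guide assignments come from general knowledge of yeast snoRNAs. Comparisons have 1 sample per group and no test. The alternatives were flank width, weights, the flank minimum, flanks without annotated modifications, the level and fold limits, each knock-in run alone and, chosen after seeing the data, the 5th percentile in place of the limit of 0.5. The 18S reads of the knock-in LSU library, with a median of 4 ends per position, entered no comparison.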

Additional observations from a re-analysis of the deposited data

Results flagged for a closer look

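The gel-purified LSU library of the knock-in strain, which entered no comparison, still held 8429 read ends on 18S rRNA. Summed over the 13 pseudouridines it had 20 read ends where the flanks would give 66.1, a level of 0.302 (95% interval 0.184 to 0.470). Of these, 7 were 3' ends (level 0.181) and 13 were 5' ends (level 0.472). The signal was picked out because it lies in data outside the comparisons and above the 3 counts that a count of 0 allows. Its file was made with read handling of its own, per its header, and single sites were too thin to be given.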

How the results depend on the processing

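Over 30 counts of pseudouridines, 162 values were computed under other settings, of which 39 moved by more than 1.5 times. With equal weights, without annotated modifications in the flanks, or with no minimum flank, 0 counts moved that far. With a level limit of 0.25 the sites at or below it were 6 in chromatin, 5 in the knock-in, 3 in the knock-out and 2 in SSU RNA with ends summed, 6 in SSU RNA with 3' ends, and 4, 3, 1 and 0 in these libraries with 5' ends. At or below the 5th percentile of each library, a limit chosen after seeing the data, were 8 in chromatin, 7 in the knock-in, 5 in the knock-out and 7 in SSU RNA with ends summed, 7 in chromatin with 3' ends, and 4, 3, 1 and 1 in the 4 libraries with 5' ends. With flanks of 2 positions 3 sites in the knock-out were low in 5' ends, 0 were lower in chromatin than in SSU RNA in 3' ends, and 1 (summed) and 2 (3' ends) were higher and 1 (3' ends) lower than in the knock-in. Against the knock-out those flanks left 1 lower in 3' ends and 0 higher in 5' ends. With a fold limit of 2, chromatin was lower than SSU RNA at 4 sites (summed) and 2 (3' ends). Against the knock-in it was then higher at 1 and lower at 1 (summed), lower at 1 (3' ends), and higher at 0 and lower at 2 (5' ends). Against the knock-out it was higher at 1 and lower at 3 (summed), lower at 1 (3' ends), and higher at 0 and lower at 4 (5' ends). With run 1 alone as the knock-in, chromatin was higher at 1 site (summed) and lower at 1 (3' ends), and with run 2 alone lower at 3 (5' ends). The causes were not tested, beyond a stricter limit calling fewer sites. No paired analysis was possible because each group has 1 sample. At the knock-out's depth, a median of 96 ends per position, single sites rest on 0 to 192 ends.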
